A study of Homo sapiens with 8 samples.

Results

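To examine whether the rise of miR-188-5p in gefitinib-treated cells was shared by the miRNAs encoded next to it, 10 mature miRNAs of the cluster that MIR188 belongs to, inside the gene CLCN5, were followed on all 8 arrays. Averaged on the log2 scale, the signal of miR-188-5p in gefitinib-treated cells was 3.23-fold that of DMSO-treated cells, whereas the median of the other 9 members was 1.11-fold. When gefitinib was given on top of luteolin, miR-501-5p was the single member that rose past the test, and it was no longer called without the few spots that stood apart from the rest of their probe. The members were hsa-miR-188-5p, hsa-miR-362-5p, hsa-miR-362-3p, hsa-miR-500a-3p, hsa-miR-501-5p, hsa-miR-501-3p, hsa-miR-502-3p, hsa-miR-532-5p, hsa-miR-532-3p and hsa-miR-660-5p (the prefix is left out below), found by name among the 1887 human miRNAs of the array. The cluster was chosen from these data for the rise of miR-188-5p in gefitinib-treated against DMSO-treated cells, so every value of that contrast is a description and was not tested. All 10 members were detected by the scanner software on all 8 arrays and passed the filter on low values, which left 480 miRNAs to test.

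All values come from 1 established cell line, PC-3, which derives from a human prostate cancer. The 4 treatments, each of 24 h, were measured with 2 arrays each: DMSO, the solvent that all cultures received, 60 µM luteolin (Lut), 60 µM gefitinib (Gef), and 60 µM luteolin plus 60 µM gefitinib (Lut+Gef). Luteolin belongs to the flavonoids of plants, and gefitinib blocks the kinase of EGFR, the receptor for epidermal growth factor. The labels call the arrays of a treatment biological replicates, while the design text speaks of samples run in duplicate, so the p-values below measure the spread between these arrays, which may be technical. The 8 arrays lay on 1 slide with each treatment in a slide column of its own, so that treatment and slide column cannot be told apart.

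A miRNA gene is transcribed as a long primary RNA, from which hairpins are cut and trimmed into short mature strands, named 5p and 3p after the arm of the hairpin. A mature miRNA pairs with messenger RNAs mainly through its seed, bases 2 to 8 from its 5′ end, and lowers their translation or stability. Hairpins that lie close together on the same strand are often cut from a shared primary RNA, yet the level of each mature strand also depends on its own processing and decay. The host gene here, CLCN5, encodes a chloride and proton exchanger of endosomes. Among the members, miR-188-5p is known from work on ageing bone marrow stroma, miR-362-5p as a regulator of the deubiquitinase CYLD, and miR-660-5p as a regulator of MDM2, the ubiquitin ligase of p53.

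In RefSeq (GRCh38.p14) the 8 hairpins lie on the plus strand of chromosome X in the order MIR532, MIR188, MIR500A, MIR362, MIR501, MIR500B, MIR660 and MIR502. They span 11.5 kb, all of it inside CLCN5, which is transcribed from the same strand. Of 3 listed transcription starts of CLCN5, 1 lies 80.6 kb before the first hairpin and 2 lie after the last. RefSeq gave mature sequences for 9 of the 10 members. They are shown because members from different hairpins are alike enough to bear on which strand a probe measures. Letters in capitals mark the seed, and miR-500a-5p, which is no member, is added because its readings are used below.
miR-532-5p: cAUGCCUUgaguguaggaccgu
miR-532-3p: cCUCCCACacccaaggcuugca
miR-188-5p: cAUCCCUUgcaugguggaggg
miR-500a-5p: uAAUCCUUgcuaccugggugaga
miR-500a-3p: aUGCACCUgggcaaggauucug
miR-362-5p: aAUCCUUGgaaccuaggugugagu
miR-362-3p: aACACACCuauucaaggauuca
miR-501-5p: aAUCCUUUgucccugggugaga
miR-501-3p: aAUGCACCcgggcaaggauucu
miR-502-3p: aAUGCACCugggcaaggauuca

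The 3p strands of MIR500A, MIR501 and MIR502 were nearly the same. miR-500a-3p matched miR-501-3p and miR-502-3p at 20 of 21 aligned bases each, and miR-501-3p matched miR-502-3p at 20 of 22. miR-501-3p and miR-502-3p also had the same seed, the only seed shared by members among the 9 with a sequence. On the 5p side miR-501-5p matched miR-500a-5p at 19 of 22 aligned bases and miR-362-5p at 17 of 22. miR-188-5p stood further off, with its best match to another member, miR-532-5p, at 14 of 21 bases. Of the 1578 miRNAs on the array with a sequence in RefSeq, none outside the cluster had the seed of a member. miR-188-5p lies at chrX:50003517-50003537, within MIR188, and miR-501-5p at chrX:50009735-50009756, within MIR501. Readings of the near-identical strands are uncertain to the extent that a probe of a member may also bind another, which was not tested.

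Signals are given as the total signal of a miRNA over its probes, in the scanner's intensity units, after scaling of each array to its 75th percentile over the 365 miRNAs detected on every array. That percentile lay between 60.5 and 92.7 before scaling, and 395 to 481 miRNAs were detected per array. The correlation between the 2 arrays of a treatment over the 365 miRNAs lay between 0.973 and 0.997. Each miRNA had 30 spots, and 0 spots of the members were saturated. At least 1 probe had most of its spots well above background on all 8 arrays for 6 members, on 6 arrays for miR-500a-3p, on 5 for miR-501-5p, on 3 for miR-501-3p (both gefitinib arrays among them) and on 2, the gefitinib arrays, for miR-502-3p. Of the other mature strands of these hairpins, 5 were on the array. miR-500a-5p was detected on 8 arrays, and miR-188-3p, miR-500b, miR-502-5p and miR-660-3p on 0. Among marker miRNAs, miR-21-5p, miR-200a-3p, miR-200b-3p and miR-429 of epithelial cancer cells were detected on all 8 arrays, and miR-200c-3p and miR-141-3p, also epithelial, on 0, with miR-205-5p on 6. Markers of liver, muscle and stroma were detected on 0 arrays, and of the blood cell markers miR-142-3p was detected on 1 and the others on 0. miR-9-5p, listed as neuronal, was detected on 8 and miR-124-3p on 0.

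In the choosing contrast, gefitinib against DMSO, miR-188-5p moved far more than its neighbours. Its scaled signal was 12.2 and 9.80 with DMSO and 36.8 and 34.1 with gefitinib, with means of 11.0 ± 1.71 and 35.4 ± 1.93 (SD, n = 2). The groups were well apart, and the log2 difference of 1.69 ranked 14 from the top of the 480 miRNAs. It was 12.3 and 7.23 with luteolin alone, and 16.5 and 17.6 with luteolin plus gefitinib. The arrays given both drugs thus lay above all arrays without gefitinib and below both arrays with gefitinib alone.

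miR-532-5p, from the neighbouring hairpin, gave 8.25 and 11.7 with DMSO and 10.5 and 12.1 with gefitinib. miR-532-3p, from the same hairpin, gave 4.89 and 6.36 with DMSO and 5.89 and 6.77 with gefitinib. In both strands the gefitinib arrays overlapped those of DMSO, with log2 differences of 0.20 and 0.18. miR-660-5p gave 9.68 and 14.1 with DMSO and 12.2 and 12.5 with gefitinib, a log2 difference of 0.08. The spread between its DMSO arrays covered both gefitinib arrays.

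The strands of MIR362 and the 3p strand of MIR500A were likewise not separated. miR-362-5p gave 6.15 and 8.03 with DMSO and 7.16 and 8.37 with gefitinib, a log2 difference of 0.14. miR-362-3p gave 4.96 and 8.01 against 7.32 and 7.67, a log2 difference of 0.25. miR-500a-3p gave 2.59 and 3.15 against 2.93 and 2.99, a log2 difference of 0.05. In each of these members the lower DMSO array lay below both gefitinib arrays and the other DMSO array above at least 1 of them.

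The remaining members parted from DMSO in different directions. miR-501-5p gave 4.09 and 3.71 with DMSO and 4.31 and 4.30 with gefitinib, a log2 difference of 0.14. miR-501-3p, cut from the same hairpin, gave 3.23 and 2.31 with DMSO and 2.19 and 2.21 with gefitinib, a log2 difference of -0.31. miR-502-3p gave 1.70 and 2.21 against 3.07 and 4.08, a log2 difference of 0.87. Of the 10 members, 3 had both gefitinib arrays above both DMSO arrays (miR-188-5p, miR-502-3p and miR-501-5p), where 21.5% of the 480 miRNAs did. One member, miR-501-3p, had both below, where 36% of the 480 did, and 6 overlapped. The median log2 difference of the other 9 members was 0.14 and that of all 480 miRNAs was -0.10. Without replicate 1 of DMSO the median of the 9 was -0.058, and without replicate 2 of DMSO it was 0.35.

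**Figure D1:**
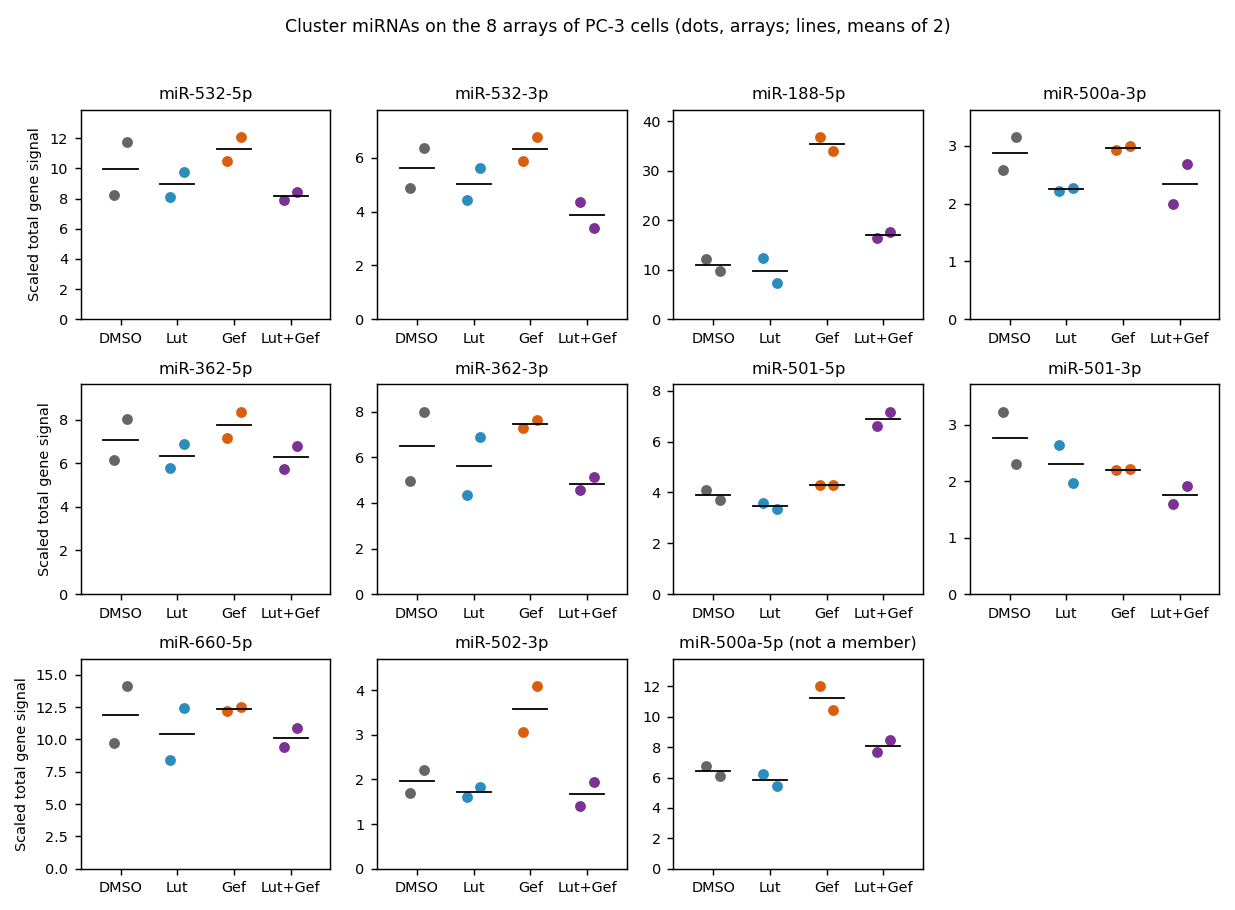
Scaled total gene signal (vertical axes, intensity units, each from 0) of the 10 members and of miR-500a-5p under the 4 treatments. Dots are the 2 arrays of a treatment and lines their means. miR-188-5p stood at 36.8 and 34.1 with gefitinib against 12.2 and 9.80 with DMSO, while the gefitinib dots of 6 members overlapped those of DMSO.

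The difference of miR-502-3p turned on which of its probes entered the total. The array carries 2 probes for it, and the scanner software leaves a probe out of the total when it does not count that probe as detected. The deposited total held both probes on the 2 arrays of gefitinib-treated cells and 1 of the 2 on the other 6 arrays, as shown by sums of probe signals that met the total within 0.00048%. The first probe gave 1.70 and 2.21 with DMSO and 1.91 and 2.36 with gefitinib, a log2 difference of 0.13. The second probe gave 0.970 and 1.43 with DMSO and 1.16 and 1.73 with gefitinib, a log2 difference of 0.26. With both probes summed on every array, an alternative chosen after seeing the data, the log2 difference of miR-502-3p fell from 0.87 to 0.18, its gefitinib arrays overlapped those of DMSO and 2 members, not 3, lay wholly above DMSO. Of these 2, miR-501-5p overlapped when the median spot of each probe was used, another such alternative. In units of spot signal it then gave 30.7 and 25.9 with DMSO and 29.2 and 28.0 with gefitinib. The total of miR-501-3p also held unequal probes, 3 of 4 on replicate 1 of DMSO and of luteolin and 2 on the other arrays, and with all probes summed its log2 difference was -0.20 in place of -0.31. That of miR-500a-3p held 1 of 2 probes on every array, and that of miR-532-3p 1 of 2 on replicate 2 of luteolin plus gefitinib alone. The other members held all probes on every array. With all probes summed, the log2 differences of the other 9 members lay between -0.20 and 0.25, with a median of 0.14, beside 1.69 for miR-188-5p.

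**Figure D2:**
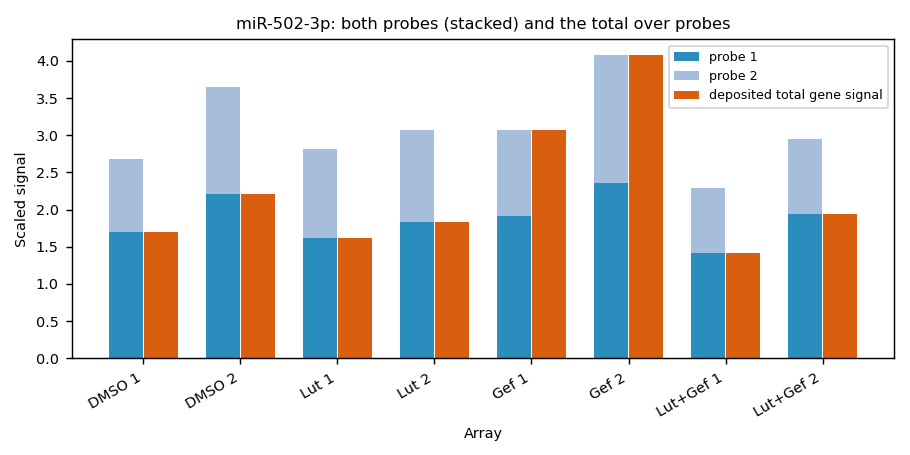
Scaled signal (vertical axis, from 0) of the 2 probes of miR-502-3p stacked on each other (blue) and the deposited total gene signal (orange) on each of the 8 arrays. The orange bar reaches the full stack on the 2 gefitinib arrays and the first probe alone on the other 6.

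Both probes of miR-188-5p, by contrast, were counted on every array and moved alike. With gefitinib their log2 differences from DMSO were 1.91 and 1.49. Spot by spot, the 15 spots of the first probe had a median scaled signal of 20.5 and 14.2 on the DMSO arrays and of 67.3 and 62.3 on the gefitinib arrays. The lowest gefitinib spot of that probe, 54.3, lay above its highest DMSO spot, 25.8. The 15 spots of the second probe had medians of 22.4 and 19.0 with DMSO and 60.8 and 57.4 with gefitinib, and its lowest gefitinib spot, 52.8, lay above its highest DMSO spot, 25.9.

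For gefitinib on top of luteolin, the difference itself comes from the 4 arrays that the choice of the cluster had not used, while the spread was estimated over all 8. miR-188-5p was higher here too, by less. The 2 arrays of luteolin-treated cells gave 12.3 and 7.23, and those of cells given luteolin plus gefitinib gave 16.5 and 17.6, with means of 9.76 ± 3.58 and 17.0 ± 0.808 (SD, n = 2). Both arrays with both drugs lay above both luteolin arrays, but the log2 difference of 0.85 (SE 0.276, 95% interval 0.17 to 1.54) did not pass the test, with a limma p of 0.214 after Benjamini-Hochberg adjustment over the 480 miRNAs. Its 2 probes differed by 1.04 and 0.68. The luteolin arrays were far apart for this miRNA: without replicate 1 of luteolin the log2 difference was 1.24 (adjusted p = 0.0463), without replicate 2 of luteolin it was 0.47 (adjusted p = 0.326), and over all 23 alternatives the adjusted p lay between 0.0463 and 1. With the 4 arrays of these groups alone the adjusted p was 0.587.

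Of the other members, 1 passed. miR-501-5p gave 3.60 and 3.36 with luteolin and 6.60 and 7.18 with luteolin plus gefitinib, means of 3.48 ± 0.173 and 6.89 ± 0.410. It rose by 0.99 on the log2 scale (SE 0.132, limma adjusted p = 0.0279), and 1.88% of the 480 miRNAs were called in this comparison. miR-188-5p and miR-501-5p were the 2 members with both arrays above both luteolin arrays, against 16.2% of all miRNAs tested. miR-532-3p and miR-501-3p were the 2 with both arrays below, against 17.9%, with log2 differences of -0.38 each (adjusted p = 0.518). With both probes of miR-532-3p on every array, its arrays of both drugs gave 4.37 and 4.88, overlapping 4.43 and 5.62 with luteolin, and its log2 difference was -0.11 (adjusted p = 0.961, within 0.315 to 1 over 23 alternatives). The remaining 6 members overlapped, with log2 differences between -0.17 and 0.04 and adjusted p between 0.983 and 1. Among their wide 95% intervals were those from -0.68 to 0.65 for miR-660-5p and from -0.95 to 0.61 for miR-362-3p. The median of the other 9 members was -0.05, and that of all 480 miRNAs was also -0.05. With quantile normalization 5 of the 10 members lay above 0 in place of 3.

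**Figure D3:**
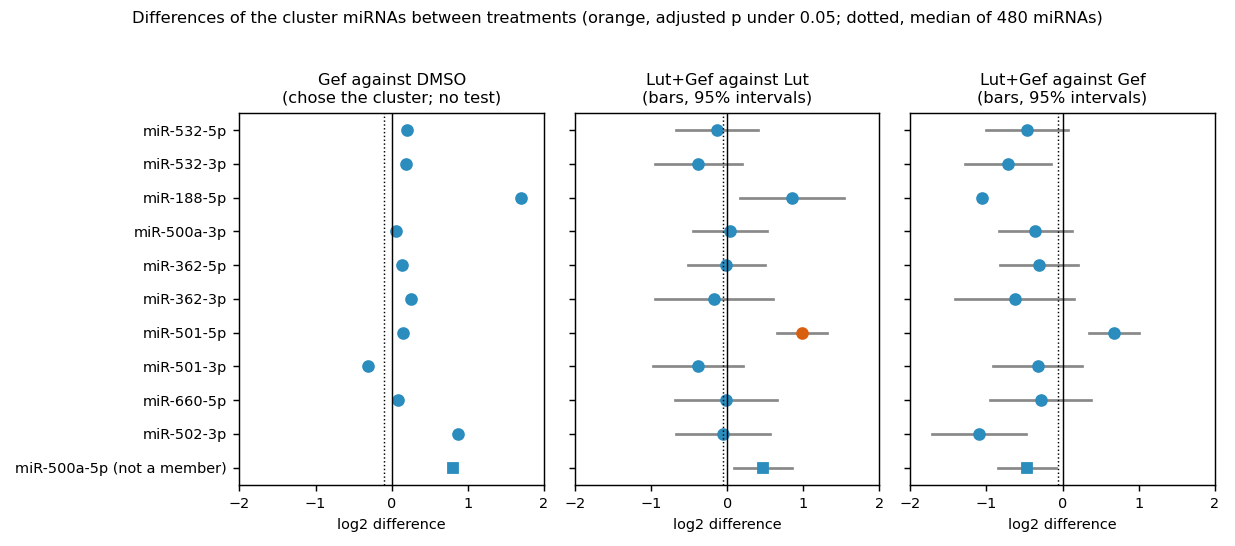
Log2 differences (horizontal axes) of each member and of miR-500a-5p, for gefitinib against DMSO, which was not tested, and for luteolin plus gefitinib against luteolin and against gefitinib. Bars, drawn for the last 2 of these comparisons only, are 95% intervals of the limma fit, left out for miR-188-5p against gefitinib, orange marks an adjusted p under 0.05, and the dotted line is the median of the 480 miRNAs. With gefitinib alone miR-188-5p stood at 1.69 beside -0.31 to 0.87 for the other 9 members, and with luteolin plus gefitinib against luteolin miR-501-5p alone passed.

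Whether a member moved away from its cluster was tested on its log2 signal minus the mean of the other members. For luteolin plus gefitinib against luteolin 0 of the 10 members passed, and 0.625% of the 480 miRNAs did. The difference was 0.87 for miR-188-5p (SE 0.367, limma adjusted p = 0.360) and 1.01 for miR-501-5p (SE 0.184, limma adjusted p = 0.107). At an unadjusted p under 0.05 there was 1 member, miR-501-5p, beside 15% of the 480. The methods' t-test with a fold over 2 and no adjustment called 1 member, beside 2.29%. In the other comparisons the mean of the other members holds miR-188-5p on arrays that chose it, so values are given there without a test. miR-501-5p stood 1.06 above the rest of the cluster for both drugs against DMSO and 1.26 for both drugs against gefitinib, and 0.59 and 0.64 without the spots, described next, that stood apart from their probe.

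The rise of miR-501-5p was uneven over its probes and spots. It has 4 probes, and for luteolin plus gefitinib against luteolin their log2 differences were 0.76, 0.15, 1.91 and 0.52. On the third probe, with 7 spots, the median scaled spot was 12.7 and 8.96 on the arrays of both drugs, and 5.92 and 6.59 on the luteolin arrays. On the arrays of both drugs 3 of its spots gave 44.5 to 46.4 on the first array and 41.8 to 53.0 on the second, while the highest of the rest gave 12.7 and 8.96. A spot was said to stand apart when its deposited signal, before scaling, was over 20 units above a probe median that itself was under 20. Together with 1 spot of the first probe, 4 spots stood apart, at the same places on both arrays of luteolin plus gefitinib. On the arrays of DMSO-treated and luteolin-treated cells no spot of miR-501-5p stood apart, and with gefitinib alone 1 did on both arrays. With the median of the spots of each probe the log2 difference was 0.58 (adjusted p = 0.200), and without the spots that stood apart it was 0.46 (adjusted p = 0.111), both alternatives chosen after seeing the data. With the replicate number as a block in the limma fit the adjusted p was 0.0505. The call was also lost without either gefitinib array (adjusted p = 0.0990), without replicate 2 of luteolin (0.0623), without replicate 2 of luteolin plus gefitinib (0.114) with the 4 arrays of these groups alone (0.211), with no scaling (0.278), with no filter (0.0548) and with the methods' t-test after Benjamini-Hochberg adjustment (0.425), within a range of 0.00825 to 0.425 over 23 alternatives.

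Spots of this kind were also found outside the cluster. Over all miRNA probes of the array, 64 spots stood apart on both gefitinib arrays and 60 on both arrays of luteolin plus gefitinib, but 0 on both DMSO arrays and 0 on both luteolin arrays. Of these, 0 stood apart on both arrays of both groups. Since each treatment had its own slide column, treatment and place on the slide cannot be told apart for them.

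miR-500a-5p, the strand opposite miR-500a-3p, showed the same feature. It gave 6.78 and 6.07 with DMSO, 6.22 and 5.47 with luteolin, 12.0 and 10.5 with gefitinib and 7.71 and 8.49 with both drugs. Its log2 difference was 0.80 for gefitinib against DMSO and 0.47 for luteolin plus gefitinib against luteolin (limma adjusted p = 0.217). Of its 3 probes, the first and the second had log2 differences of 1.09 and 1.23 with gefitinib and the third -0.04, whereas on top of luteolin the third differed by 0.95 and the others by -0.20 and 0.09. On both gefitinib arrays 7 of its 30 spots stood apart, and on both arrays of both drugs 4 did. Without such spots its log2 difference for gefitinib against DMSO was -0.04, and 0.10 on top of luteolin.

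**Figure D4:**
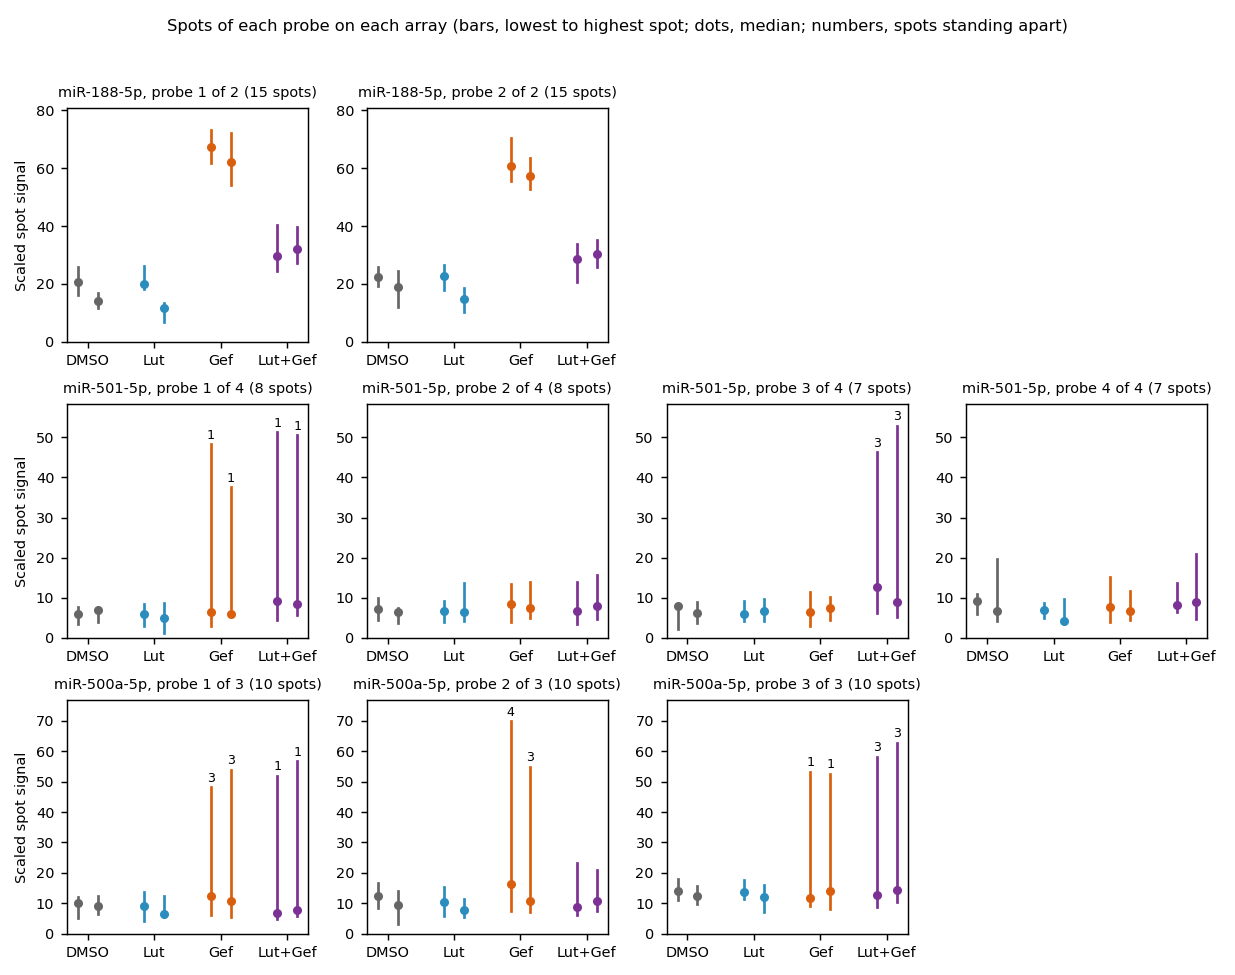
Scaled signal of single spots (vertical axes, from 0) for each probe of miR-188-5p, miR-501-5p and miR-500a-5p. Each bar runs from the lowest to the highest spot on an array, the dot is the median and the number above a bar counts the spots that stood apart. The medians of the miR-188-5p probes were 14.2 to 22.4 with DMSO and 57.4 to 67.3 with gefitinib, with no overlap of spots, whereas those of the miR-501-5p probes lay between 4.12 and 12.7 on all arrays.

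With luteolin alone 0 of the 9 members other than miR-188-5p passed the test. The DMSO arrays belong to the choosing contrast, so miR-188-5p is described here and not tested. All 10 members lay below DMSO on average, by 0.14 to 0.34 on the log2 scale, beside a median of -0.10 over all miRNAs. For the 9 tested the limma adjusted p lay between 0.737 and 0.958, and 2.08% of all miRNAs were called. At an unadjusted limma p under 0.05 there were 0 of these 9 too, beside 8.54% of all miRNAs. The methods' t-test with a fold over 2 called 0 of them, beside 2.71%. The direction depended on the scaling, since 6 of the 10 lay above DMSO with quantile normalization. miR-500a-3p had the lowest value, -0.34, with 2.22 and 2.27 against 2.59 and 3.15. miR-188-5p gave 12.3 and 7.23 with luteolin, around the 12.2 and 9.80 of DMSO, a log2 difference of -0.21.

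Against DMSO, both drugs together gave the same single call. This comparison shares the DMSO arrays with the choosing contrast, so no test is given for miR-188-5p. miR-501-5p rose by 0.82 on the log2 scale (SE 0.132, limma adjusted p = 0.0160), with the spots described above, and 12.1% of the 480 miRNAs were called. With the median of spots the difference was 0.32 (adjusted p = 0.289, within 0.00746 to 0.289 over 23 alternatives) and without the spots that stood apart 0.33 (0.145), and the call was lost without replicate 2 of DMSO (0.0777) or of luteolin plus gefitinib (0.0735), with no scaling (0.104), with no filter (0.0519), with the 4 arrays of these groups alone (0.0726) and with the methods' t-test after Benjamini-Hochberg adjustment (0.161). miR-188-5p lay above DMSO on both arrays, with a log2 difference of 0.64. miR-501-3p gave 1.60 and 1.92, below 3.23 and 2.31 with DMSO, a log2 difference of -0.64 (adjusted p = 0.170). It passed with all probes summed (-0.71, limma adjusted p = 0.0330), where 84 of the 480 miRNAs were called. Its adjusted p lay between 0.0200 and 0.948 over the alternatives.

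When luteolin was added to gefitinib, the cluster lay lower almost throughout. This comparison shares the gefitinib arrays with the choosing contrast, so the values of miR-188-5p are a description. For every member but miR-501-5p both arrays of luteolin plus gefitinib lay below both gefitinib arrays, where 32.3% of the 480 miRNAs did. Among them is miR-188-5p, chosen for its height on the gefitinib arrays. The test was passed by 0 of the 9 others, where 4.58% of all miRNAs passed. Of the 9 members other than miR-188-5p, 3 had an unadjusted limma p under 0.05, miR-502-3p and miR-532-3p on the lower side and miR-501-5p on the higher, beside 12.5% of all miRNAs, and the methods' t-test with a fold over 2 called 0 of the 9, beside 7.08%. The signal of miR-188-5p went from 36.8 and 34.1 to 16.5 and 17.6, a log2 difference of -1.06. miR-502-3p differed by -1.10 (adjusted p = 0.0948), and by -0.44 (adjusted p = 0.535) with both its probes on every array. For miR-532-3p the difference was -0.72 (adjusted p = 0.264), and -0.45 (adjusted p = 0.438) with both its probes on every array. It was -0.63 for miR-362-3p, -0.47 for miR-532-5p and -0.36 for miR-500a-3p. The exception was miR-501-5p, with 6.60 and 7.18 against 4.31 and 4.30, a log2 difference of 0.68 (adjusted p = 0.0540, within 0.0368 to 0.887 over 23 alternatives). It was 0.30 with the median of spots (adjusted p = 0.623) and 0.12 without the spots that stood apart (adjusted p = 0.887). The median of the other 9 members was -0.36, against -0.06 for all 480 miRNAs. Without replicate 1 or without replicate 2 of luteolin, which leaves the differences themselves as they are, miR-501-5p passed (0.0498). With quantile normalization miR-500a-3p and miR-501-3p lay above gefitinib alone.

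The difference between the effects of gefitinib with and without luteolin holds the choosing contrast and is given without a test. For miR-188-5p the log2 effect was 0.84 smaller with luteolin, and for miR-502-3p it was 0.92 smaller, or 0.36 smaller with both probes on every array. For miR-501-5p the effect was 0.84 larger with luteolin, or 0.25 larger without the spots that stood apart. The median over the 10 was -0.24, beside 0.0039 over the 480 miRNAs.

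The members also varied within treatments, and miR-188-5p did so apart from most of them. On replicate 2 of DMSO 7 members were higher than on replicate 1, miR-660-5p at 14.1 against 9.68 and miR-362-3p at 8.01 against 4.96 among them. The other 3, miR-188-5p, miR-501-5p and miR-501-3p, were lower. On the luteolin arrays all 10 members differed between the replicates in the same direction as on the DMSO arrays. So did 9 on the gefitinib arrays and 6 on those of both drugs. The widest gap between replicates on the log2 scale was 0.77 for miR-188-5p with luteolin, at 12.3 against 7.23. The gefitinib arrays were closest, with a median gap of 0.09 over the members.

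Over the 8 arrays, the profiles nearest to that of miR-188-5p belonged to miRNAs outside the cluster, while only 9 of the 364 miRNAs compared were members. Nearness was the root mean squared difference of log2 signals, each centred on its own mean, among the 364 other miRNAs detected on all arrays, and it is a description over 8 arrays that includes the choosing ones. The nearest profiles were those of miR-4534 (0.27), miR-642a-3p (0.27), miR-4651 (0.31), miR-4746-3p (0.31) and miR-718 (0.32). miR-4534 gave 9.45 and 7.21 with DMSO, 25.5 and 27.4 with gefitinib, 15.2 and 6.92 with luteolin and 15.6 and 18.4 with both drugs. Like miR-188-5p it was highest on the gefitinib arrays and lowest on the second luteolin array. In that order miR-500a-5p ranked 10 and miR-502-3p 26, both with the probe and spot features given above. The other members ranked from 72 for miR-500a-3p and 82 for miR-501-5p to 114 for miR-660-5p, so that 8 of the 9 were in the nearer part of the 364, while miR-501-3p lay past its middle at a distance of 0.86.

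**Figure D5:**
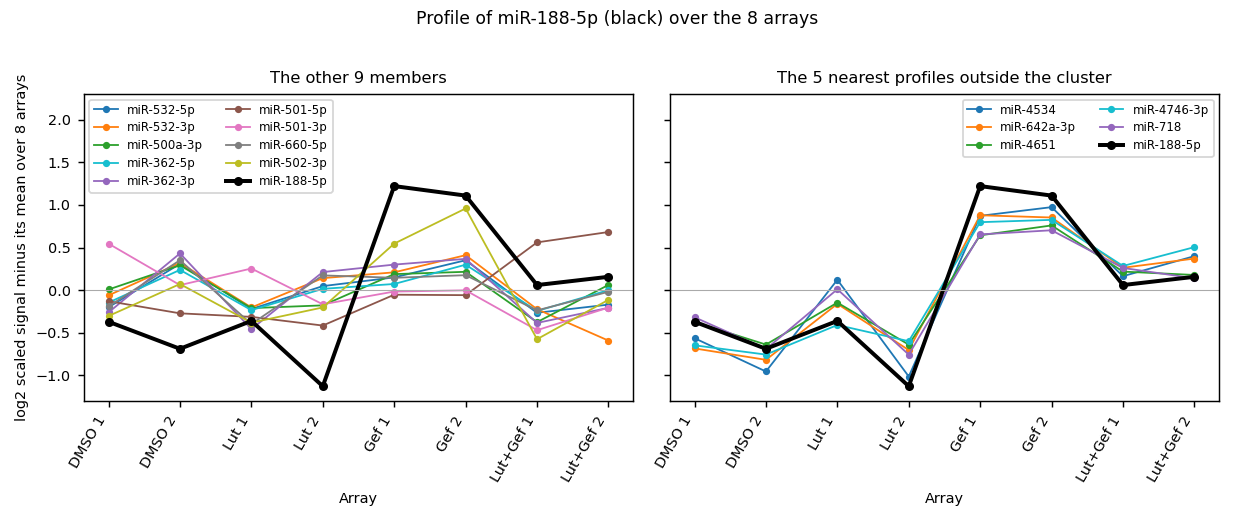
Log2 scaled signal minus its mean over the 8 arrays (vertical axis) on each array, for miR-188-5p (black) with the other 9 members on the left and with the 5 nearest profiles outside the cluster on the right. miR-188-5p peaks on the gefitinib arrays at 1.22 and 1.11, and the 5 outside profiles are also highest there. Among the members miR-501-5p is highest with both drugs and miR-501-3p on the first DMSO array. On the second DMSO array miR-660-5p, miR-362-3p and miR-500a-3p are highest.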

How the data were processed

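Total RNA of PC-3 cells was hybridised by the authors to 1-colour Agilent miRNA arrays and each array was extracted on its own with Feature Extraction 10.7.3.1, per the file headers. The deposited values are background-subtracted intensity on a linear scale, with no normalization between arrays: a processed signal per spot and a total per probe and per miRNA. The deposited series table holds processed intensity per spot. From the 8 scanner files, the total signal of each miRNA was scaled to the 75th percentile over the 365 miRNAs detected on all arrays, raised to a floor of 0.609 and taken to log2. The 480 miRNAs detected on both arrays of a treatment were fitted over the 4 groups of 2 arrays with limma 3.58.1 in R 4.3.3 (4 residual degrees of freedom, prior 1.66). p-values were two-sided and adjusted by Benjamini-Hochberg over the 480, with calls under 0.05. An exact test of 2 arrays against 2 cannot give a p under 0.333. The script was tested on simulated data. The number of arrays limits the precision.

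The members, lists and tests were chosen with earlier results of these data known. Named were the 10 members, the other strands of their hairpins, outside miRNAs with a member's seed and the 5 nearest profiles. Mature sequences were matched by name to RefSeq (GRCh38.p14). Alternatives changed the scaling, the spot summary, the background correction (normexp, offset 50), the filter, the floor, the arrays in the fit, the test (also the methods' t-test) and single arrays. The alternatives on probes and spots (4) were added after seeing the data.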

Additional observations from a re-analysis of the deposited data

How the results depend on the processing

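With 2 arrays per treatment and dim probes for 4 members, the calls were few and not stable. For luteolin plus gefitinib against luteolin the 1 member called became 0 with no scaling, no filter, the arrays of the groups compared only, either form of the methods' t-test, the median of spots, the spots that stood apart left out, or 1 value per probe, and 0 to 2 when single arrays were left out (0 without either gefitinib array or replicate 2 of luteolin or of both drugs, 2 without replicate 1 of luteolin). For luteolin plus gefitinib against DMSO the 1 call became 0 with no scaling, no filter, the groups compared only or either t-test. It also became 0 with the median of spots or 1 value per probe. There were 2 with the mean processed signal, the series table or the sum of all probes, where 82, 91 and 84 of the 480 miRNAs were called. Without the spots that stood apart it was miR-501-3p (limma adjusted p = 0.0299) in place of miR-501-5p (0.145). Without single arrays miR-501-5p differed by 0.75 to 0.89. Against gefitinib, miR-188-5p is left out of the count, since the gefitinib arrays chose it. Of the other 9 members 0 passed in the main fit. Under some alternatives miR-502-3p and miR-501-5p passed (lowest limma adjusted p 0.0141 and 0.0368), and the rest passed under none. For luteolin against DMSO 0 of the 9 members other than miR-188-5p were called throughout. Over all miRNAs the counts of calls also moved, from 9 to between 0 and 28 on top of luteolin, from 10 to 0 to 18 for luteolin against DMSO, from 58 to 12 to 92 for both drugs against DMSO and from 22 to 7 to 41 against gefitinib.

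For gefitinib against DMSO, miR-188-5p lay between 0.66 (normexp) and 2.06 (no scaling), with 0.93 for log2 of the signal plus 16 and 1.54 to 1.85 without single arrays. The median of the other 9 members was 0.51 with no scaling, which moves the median of all miRNAs from -0.10 to 0.26, and -0.058 to 0.35 without single arrays. On top of luteolin, miR-188-5p differed by 0.47 to 1.24 without single arrays, by 0.22 with normexp and by 0.37 for log2 of the signal plus 16. The difference of miR-501-5p, 0.99 in the main fit, was 0.12 with normexp and 0.23 for log2 of the signal plus 16. Relative to the cluster 0 members called became 1 with the series table and with the t-test over 2-fold, and stayed 0 without single arrays. The median difference between the effects of gefitinib was -0.24, and -0.73 with no scaling, -0.043 with normexp, and from -0.47 (without replicate 2 of DMSO) to -0.074 (without replicate 1 of DMSO). No called value changed sign under any alternative run.

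Same-numbered arrays deviated together in 3 of the 6 pairs of treatments, DMSO and luteolin most (r = 0.908; range from -0.135), and each number had a slide row of its own. Since the other pairs did not and no label ties the numbers, they were not taken as pairs. With the replicate number as a block, 0 members were called on top of luteolin (miR-501-5p limma adjusted p = 0.0505). Against gefitinib 1 was, in a count that holds miR-188-5p and is a description. The other counts of calls were those without the block. The 75th percentile over all miRNAs was not run, because it fell at the value of undetected miRNAs on 5 arrays. Where an array was left out, the lone one was assumed to vary like the other groups. The cause of these shifts was not tested.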
